A study of Mus musculus with 8 samples.

Results

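The Mediator kinase module comprises the genes Med12, Med13, Cdk8 and Ccnc and the paralogues Med12l, Med13l and Cdk19. Accessible chromatin regions were taken as theirs when the region centre lay inside the annotated extent of 1 of these genes or had it as the nearest gene within 100 kb. This gave 169 regions for the 7 genes, out of 160978 regions in all. The genes were selected on these same measurements, with the authors' fold changes and adjusted p-values at the reduced Med12l regions known, so the authors' folds and adjusted p-values are given here as a description and no test was made on the list.

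Mediator is the large complex that carries signals from transcription factors bound at enhancers to RNA polymerase II. Its kinase module docks reversibly on the core complex: Med13 or Med13l makes the contact, Med12 or Med12l activates the kinase, and Cdk8 or Cdk19 is the kinase, paired with cyclin C, the product of Ccnc. Med12 is known to act at enhancers of blood stem and progenitor cells, and in myeloid leukemia Cdk8 and Cdk19 have been studied as drug targets. Med12l is a long gene on mouse chromosome 3 whose extent also holds genes of nucleotide receptors and other G protein-coupled receptors.

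ATAC-seq, which reads open chromatin through the cuts of a transposase, was run on 8 libraries of mouse bone marrow cells sorted as cKit+ Lymph- Ery-, a gate that enriches for stem and progenitor cells. Of these, 4 were labelled AML (acute myeloid leukemia): 2 of genotype URE-delta/+;Tet2+/- and 2 of genotype URE-delta/+;Tet2-/-. The 4 labelled normal were 1 each of URE+/+;Tet2+/+, URE-delta/+;Tet2+/+, URE+/+;Tet2+/- and URE+/+;Tet2-/-, described as age-matched. The URE is the upstream regulatory element, a distal enhancer of Spi1, the gene of the transcription factor PU.1, and Tet2 encodes an enzyme that oxidises methylated cytosine in DNA. The values come from 1 contrast made by the authors, leukemic over non-leukemic with low PU.1, and no source used here says which libraries entered either arm. Only 1 normal library carried the URE deletion and none carried it with Tet2 loss, so the disease and the combined genotype cannot be told apart. Of the lanes in the library names, lane 8 held 2 normal libraries and 0 AML libraries. Values per library were not used, so the depth and the spread between mice are unknown for every fold below.

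Kit, Ptprc, Cd34, Flt3 and Mpo were listed as progenitor markers, although Ptprc is not specific to progenitors. The log2 average abundance is the authors' measure of read level, with a median of -1.17 over all regions. At gene ends (centre within 1 kb) it was 3.26 for Kit, 2.65 for Ptprc, 1.66 for Cd34 and 0.09 for Flt3. Mpo had 4 regions, none of them at a gene end. The B-cell markers Cd79a and Pax5 and the T-cell markers Cd3e, Cd3g and Cd8a had gene-end abundances between -2.30 and -0.18. The erythroid markers Klf1 and Epor stood at -0.36 and -0.66. Megakaryocyte markers (Pf4, Gp9 and Itga2b) stood at 0.76 to 1.87 and macrophage markers (Adgre1, Csf1r and Cx3cr1) at 0.23 to 1.18. The mast cell and basophil markers Mcpt8 and Cpa3 stood at 0.62 and -1.39, and the endothelial markers Pecam1 and Tek at 0.22 and -0.44; Ms4a2 and Cdh5 had no gene-end region. At gene ends the megakaryocyte and macrophage markers, Mcpt8 and Pecam1 thus all lay above Flt3. This order depends on the gene-end window. Over all regions of a gene, the highest abundance was 4.11 at Klf1, 2.41 at Pax5 and 0.14 at Epor. For Kit and Flt3 it was 3.26 and 2.48. For Cd79a, Cd3e, Cd3g and Cd8a the highest value was the gene-end one. Low gene-end values therefore do not show that erythroid or B-cell chromatin was absent.

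Accessibility along Med12l was lower in leukemic cells. Of its 52 regions, 11 fell and 0 rose at an adjusted p under 0.001, the limit of the authors' own changed sets, to which the words fell and rose refer throughout. Over all regions 1.22% fell and 1.24% rose, and at Med12l 21.2% fell, a share given as a description because the gene was chosen for it. The median log2 fold change over the Med12l regions was -1.17, with quartiles of -2.23 and -0.57, against 0.02 over all regions and -0.04 over chromosome 3. Values below 0 were found at 45 of the 52 regions, or 86.5%, against 49.4% of all regions. At an adjusted p under 0.05, 22 of the 52 regions were lower and 0 higher, where 9.21% and 7.98% of all regions were called. At the stricter limit of 0.0001, 2 fell and 0 rose, where 0.252% and 0.387% of all regions were called. In these bulk libraries, fewer cells of a type with the regions open and less opening per cell cannot be told apart.

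The 6 other genes of the module held 117 regions, of which 1 fell and 0 rose. That share, 0.855%, is close to the 1.22% and 1.24% of all regions called in each direction. Their median log2 fold change was -0.28, and 72 of the 117 values were below 0. The difference between Med12l and its partners was not tested.

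**Figure D1:**
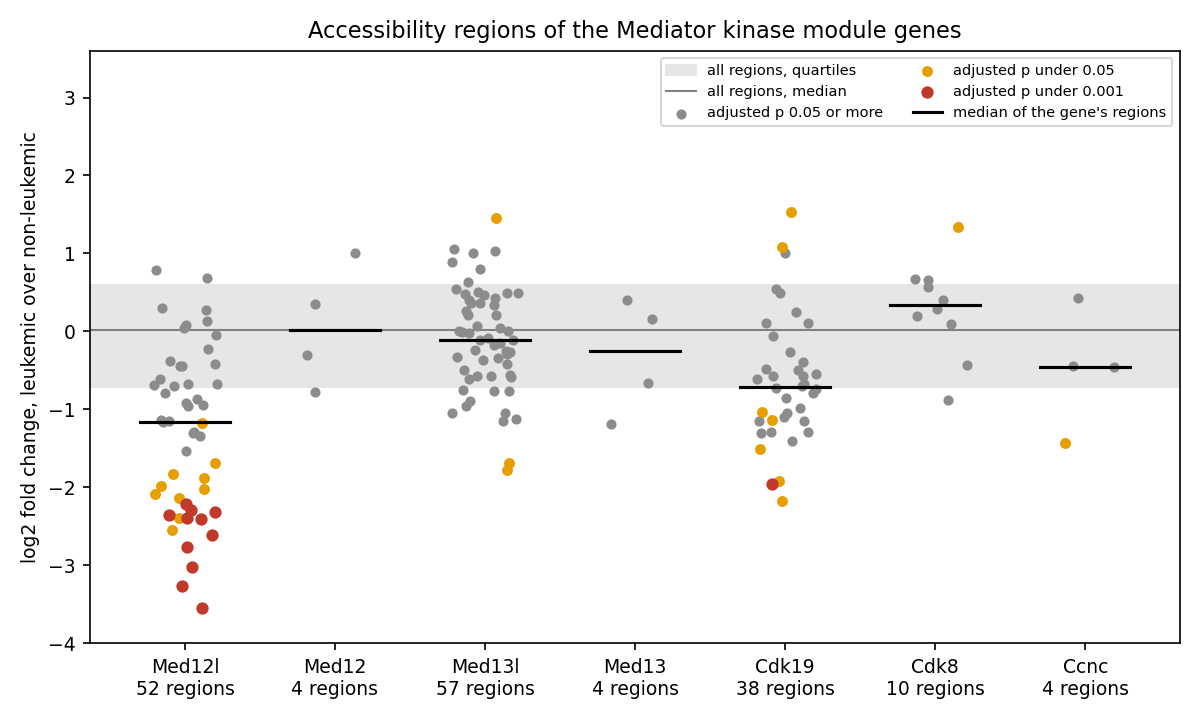
Each point is 1 region; the vertical axis is the authors' log2 fold change of leukemic over non-leukemic cells, and the horizontal axis gives the gene with its number of regions. Black bars are medians over the regions of a gene, the grey band and line are the quartiles and median of all 160978 regions, and colours mark the authors' adjusted p. Med12l has the lowest median, -1.17, and holds 11 of the 12 regions that fell; the Cdk19 median, -0.71, lies at the lower edge of the band.

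The promoters of Med12l, P2ry12 and P2ry13 and 1 of the P2ry14 promoter entries overlapped regions that fell, while that of the paralogue Med12 overlapped a region that was not called, so their sequences are shown. RefSeq promoter entries on GRCm38.p6 were matched for 6 of the 7 module genes, all but Cdk19, and for P2ry12, P2ry13, P2ry14 and Igsf10. Each line gives the 250 bases before the transcript start of the entry, read 5′ to 3′ on the strand of the gene. The Med12l entry starts inside the gene, downstream of the first base of its annotated extent, and the same region covers both positions. Capitals mark GGAA, the core that ETS factors such as PU.1 recognise, or TTCC, the same core on the other strand. They are Med12l (chr3:59006728-59006977, plus strand), Med12 (chrX:101273841-101274090, plus strand), P2ry12 (chr3:59262986-59263235, minus strand), P2ry13 (chr3:59210883-59211132, minus strand) and, for P2ry14, the entry of 4 that lies at a region that fell (chr3:59130763-59131012, minus strand).
Med12l: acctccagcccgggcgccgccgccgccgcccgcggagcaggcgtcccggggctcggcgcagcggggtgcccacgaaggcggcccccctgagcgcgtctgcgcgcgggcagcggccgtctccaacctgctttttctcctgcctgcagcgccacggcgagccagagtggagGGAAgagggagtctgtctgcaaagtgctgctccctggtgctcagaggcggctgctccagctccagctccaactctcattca
Med12: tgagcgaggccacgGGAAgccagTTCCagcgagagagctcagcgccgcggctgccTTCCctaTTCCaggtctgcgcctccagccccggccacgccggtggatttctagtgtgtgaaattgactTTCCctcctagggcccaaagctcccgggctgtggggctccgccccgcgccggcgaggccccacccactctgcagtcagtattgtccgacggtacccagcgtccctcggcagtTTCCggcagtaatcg
P2ry12: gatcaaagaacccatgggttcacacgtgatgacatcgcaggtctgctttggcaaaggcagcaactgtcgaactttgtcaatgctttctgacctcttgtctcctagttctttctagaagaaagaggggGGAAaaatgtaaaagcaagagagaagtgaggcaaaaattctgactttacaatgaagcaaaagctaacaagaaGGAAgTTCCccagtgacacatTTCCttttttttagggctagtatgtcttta
P2ry13: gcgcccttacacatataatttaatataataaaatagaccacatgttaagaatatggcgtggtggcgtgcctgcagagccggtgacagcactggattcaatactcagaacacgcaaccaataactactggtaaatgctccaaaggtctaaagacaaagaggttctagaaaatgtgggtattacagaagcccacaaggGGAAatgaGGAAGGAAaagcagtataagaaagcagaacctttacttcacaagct
P2ry14: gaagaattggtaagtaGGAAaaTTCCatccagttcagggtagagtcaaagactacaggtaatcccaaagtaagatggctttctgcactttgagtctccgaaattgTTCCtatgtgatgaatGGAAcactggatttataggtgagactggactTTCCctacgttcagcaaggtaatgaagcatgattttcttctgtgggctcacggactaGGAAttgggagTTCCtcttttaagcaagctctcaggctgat

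These windows differ in base composition and in the number of matches. The Med12l window was 72% G or C with 1 GGAA match, and the Med12 window was 66% with 6. The windows of P2ry12 and P2ry13 were each 41.6% G or C, with 4 and 3 matches, and that of P2ry14 was 42.8% with 7. GGAA, searched on both strands, is found in 93.4% of the 32851 promoter windows of this length, with a median of 3 matches, so its presence is common. The longer PU.1 core GAGGAAGT, which contains GGAA, is found in 2.44% of all windows and in 0 of the 13 windows of these genes. A match is a description of the letters and not of binding.

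Med12l (chr3:59005419-59318446, 313 kb) encodes the paralogue of the kinase-activating subunit Med12. The first base of this extent lay in the region chr3:59005117-59007409, which stood at -2.21 (adjusted p = 1.59e-04) per the authors' deposited table and overlaps the Med12l window printed above. The authors' deposited table gives this region a log2 abundance of 2.60, the highest of the 11 Med12l regions that fell. Further along, where no other gene is annotated, the region chr3:59054624-59055484 stood at -2.31 (adjusted p = 5.09e-04) per the authors' deposited table. The region chr3:59080763-59081476 followed at -2.40 (adjusted p = 2.05e-04) per the authors' deposited table. Across the stretch from the start to 80 kb, 11 of 12 regions had values below 0, and the exception, at 0.69, had a low log2 abundance of -2.24 per the authors' deposited table.

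Inside Med12l, on the other strand, lie the receptor genes P2ry14, P2ry13 and P2ry12. P2ry14 encodes a receptor for UDP-glucose, and P2ry13 and P2ry12 encode receptors for ADP, the latter known from platelets and microglia. The region over the P2ry12 start, chr3:59260226-59264285, was the most reduced of Med12l at -3.55, or 11.7-fold lower (adjusted p = 4.77e-05), per the authors' deposited table. At 4059 bp it was also the widest Med12l region. Within P2ry12 the region chr3:59228647-59229464 stood at -2.29 (adjusted p = 7.17e-04) per the authors' deposited table. The other 7 of the 9 regions inside P2ry12 did not pass the authors' limit, and 3 of the 9 had values above 0, up to 0.79, per the authors' deposited table.

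Around P2ry13, 4 regions fell within 10 kb of one another. The region over its start, chr3:59210748-59211119, stood at -2.76 (adjusted p = 2.38e-04) per the authors' deposited table. Just beyond that start, chr3:59211649-59212849 stood at -3.27 (adjusted p = 1.56e-04) per the authors' deposited table. On the far side of the gene, chr3:59205971-59206894 stood at -2.61 (adjusted p = 7.15e-05) and chr3:59203609-59205424 at -3.02 (adjusted p = 5.03e-04) per the authors' deposited table. The centres of these regions lie in no other annotated gene than Med12l, although the region over the start reaches into P2ry13, and together with the P2ry12 start they hold the 5 lowest folds of the 52. The region inside P2ry13 itself, chr3:59208483-59209206, was at -2.09 with an adjusted p of 0.00106 per the authors' deposited table, just outside the limit.

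At P2ry14, 2 of 7 regions fell and 4 of 7 were lower at an adjusted p under 0.05. The region chr3:59130420-59130989, over the start of the P2ry14 entry printed above, stood at -2.36 (adjusted p = 6.87e-04) per the authors' deposited table. Next to it, chr3:59131986-59133795 stood at -2.41 (adjusted p = 6.82e-04) per the authors' deposited table. Over the P2ry14 start farthest upstream, chr3:59153374-59153932 was at -1.69 (adjusted p = 0.00938) per the authors' deposited table and was not called. The most abundant Med12l region of all, chr3:59119736-59121012 inside P2ry14, had a log2 abundance of 2.70 and a log2 fold change of -2.39 (adjusted p = 0.00121) per the authors' deposited table.

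Of the other genes examined inside or across Med12l, Igsf10 had a region that fell and Gpr171 and F630111L10Rik had none. Gpr171, a G protein-coupled receptor gene, had 3 regions, and the one over its higher-coordinate end, chr3:59100804-59101930, stood at -2.55 (adjusted p = 0.00171) per the authors' deposited table. The non-coding gene F630111L10Rik had 2 regions, both shared with P2ry14, and 0 were called. Igsf10, an immunoglobulin superfamily gene that overlaps the last bases of Med12l, had 1 of 5 regions that fell: chr3:59341539-59342321 stood at -3.31 (adjusted p = 9.50e-05) per the authors' deposited table. The region at the Igsf10 start, chr3:59343792-59344620, was at -0.96 (adjusted p = 0.188) per the authors' deposited table.

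**Figure D2:**
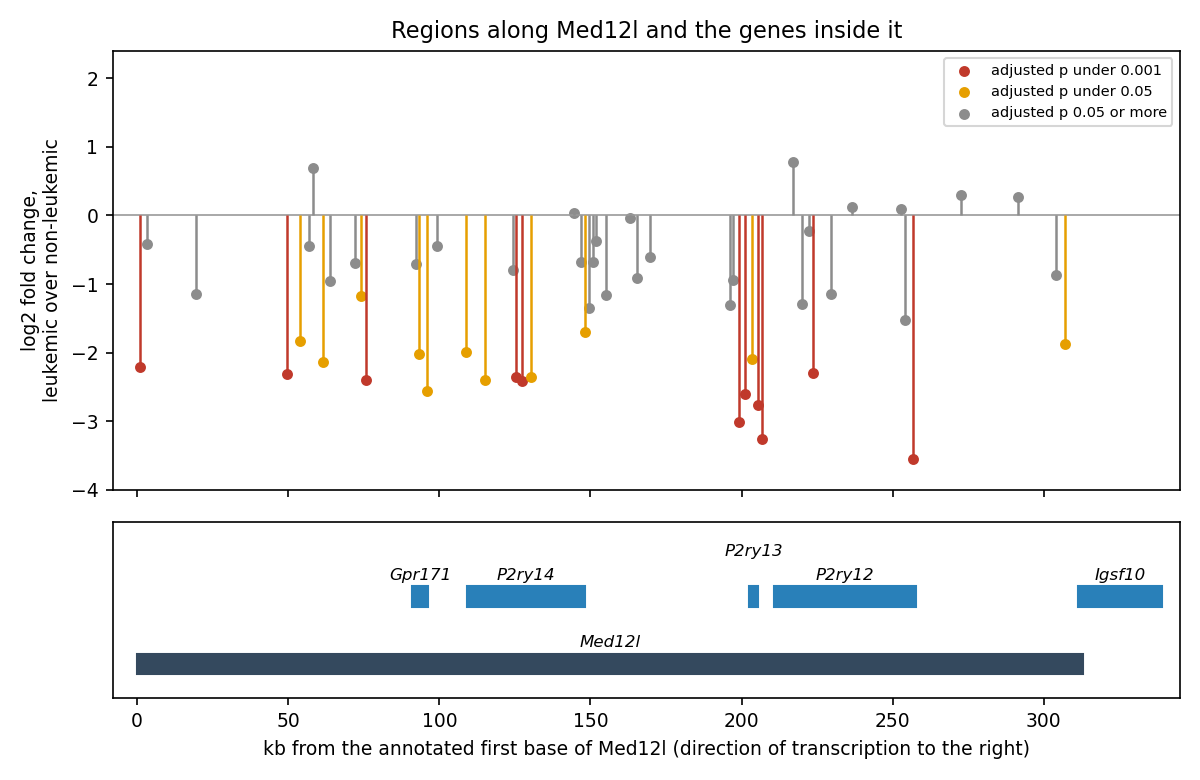
Top, the authors' log2 fold change of each of the 52 Med12l regions (vertical axis) by the distance of its centre from the annotated first base of Med12l in kb (horizontal axis), coloured by adjusted p. Bottom, extents of Med12l, Gpr171, P2ry14, P2ry13, P2ry12 and Igsf10; the regions around P2ry13 and at the start of P2ry12, on its right-hand side, reach the lowest values, down to -3.55.

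The fallen regions did not all lie inside the nested genes or within 1 kb of them. Of the 11, 4 had their centre inside another gene and 5 within 1 kb of one, and 4 overlapped a promoter entry, of Med12l, P2ry14, P2ry13 or P2ry12. With the 23 regions within 1 kb of another gene left out, 29 remained, with 6 that fell, 26 below 0 and a median of -0.95. Among these 6 are chr3:59203609-59205424, chr3:59205971-59206894 and chr3:59211649-59212849, described above as around P2ry13. Which gene a region belongs to was not tested. The 23 left out had 5 that fell, 19 below 0 and a median of -1.69. Counting a region only for the shortest gene around its centre left Med12l 7 fallen regions of 32. By position, the lower-coordinate part of the gene up to its midpoint had 5 fallen regions of 29 and the rest 6 of 23, with medians of -1.17 and -1.15. Beyond the P2ry12 start, the last 4 regions of Med12l had 0 that fell and a median of -0.30. Only the last of them, chr3:59312294-59312913, had a log2 abundance above 0, of 0.08. It stood at -1.88 (adjusted p = 0.0106) per the authors' deposited table. The others had low abundances, from -2.84 to -1.31.

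The Med12l regions also differed with read level. All 20 regions with a log2 abundance of at least 0 had values below 0, from -3.55 to -1.17, and each passed an adjusted p of 0.05, which 21.0% of all regions of that abundance passed downwards. Of these 20, 11 fell, where 4.37% of the 42370 regions of that abundance in the full table fell and 2.67% rose. The 32 less abundant regions had a median of -0.69 and 0 that fell, with 25 values below 0. The lack of calls at low abundance is not particular to Med12l. Of the 1961 regions of the full table that fell, 1853 had a log2 abundance of at least 0. In the full table, 49.8% of the regions with a log2 abundance of at least 0 were below 0 and their median was 0.01. The fallen Med12l regions were also wide, with a median of 923 bp against 276 bp for those not called. The median over all regions was 334 bp, and whether fallen regions elsewhere were also wider was not examined. The limit cut through a continuous series: the last region inside it was chr3:59228647-59229464 (adjusted p = 7.17e-04) and the nearest outside was chr3:59208483-59209206 (adjusted p = 0.00106) per the authors' deposited table.

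**Figure D3:**
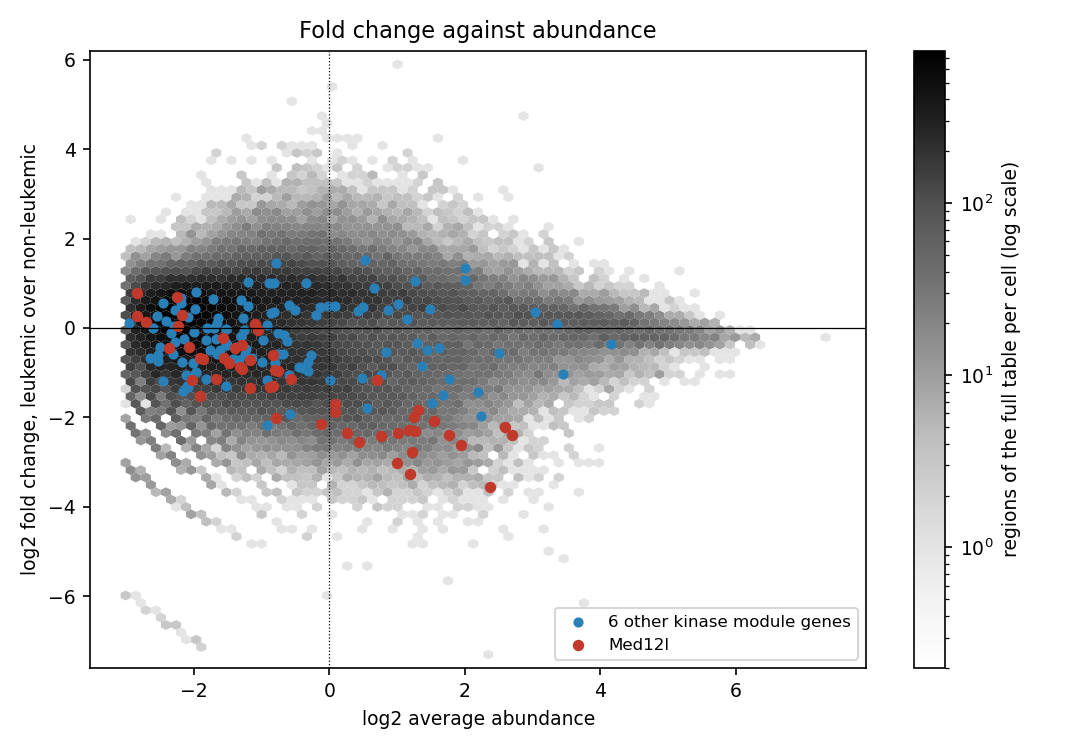
The authors' log2 fold change (vertical axis) against the log2 average abundance (horizontal axis), with all regions of the full table as grey cells shaded by number on a log scale. Red points are the 52 Med12l regions, blue points the 117 regions of the other 6 genes, and the dotted line marks an abundance of 0; all 20 red points to its right lie below a fold of 0.

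Among the stretches on either side of Med12l, out to 1000 kb, the median was lowest in the 100 kb after the gene. In the 100 kb before Med12l the median was -0.37 and 1 of 5 regions fell, chr3:58982786-58984703, nearest to the pseudogene Rpl13-ps6, at -2.05 (adjusted p = 5.25e-04) per the authors' deposited table. In the 100 kb after it, 1 of 5 fell, the Igsf10 region, and all 5 values were below 0 with a median of -1.07. From 100 to 500 kb before Med12l, 30 regions had a median of -0.11 with 1 that fell, and over the same distance after it there were 2 regions, from -0.21 to 0.52. From 500 to 1000 kb, the 21 regions before Med12l had a median of -0.09, with 1 that fell and a lowest value of -3.45, and the 19 after it had a median of -0.39 with 0 that fell. Siah2, a ubiquitin ligase gene in the upstream stretch, had 3 regions and 0 that fell. Its start region, chr3:58690494-58692984, stood at -0.28 (adjusted p = 0.737) per the authors' deposited table.

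Platelet precursors and macrophages are known to express P2Y receptors, and the regions of their markers were examined beside those of other cells. For comparison, over all regions the median was 0.02, 49.4% were below 0, 1.22% fell and 1.24% rose. The 8 megakaryocyte marker regions had -0.86 as their median log2 fold change, with 6 below 0, 1 that fell and 0 that rose. By gene the medians were -0.97 at Pf4, -1.06 at Gp9 and 0.06 at Itga2b, which held the fallen region. The 21 macrophage marker regions had a median of -0.85 with 18 below 0, 1 that fell, at Adgre1, and 0 that rose. The 63 regions of the listed progenitor markers had a median of -0.63 with 40 below 0, 6 that fell and 1 that rose. These genes differed, with medians of -2.34 at Cd34, -1.15 at Ptprc, -0.04 at Flt3, 0.07 at Kit and 0.61 at Mpo. Ptprc, which is not specific to progenitors, held 24 of the 63 regions. Medians were -0.03 over 24 B-cell, 0.42 over 10 T-cell and -0.04 over 38 endothelial marker regions. They were 0.52 over only 4 erythroid and -0.57 over 15 mast cell or basophil marker regions. The single region of Mcpt8, a basophil protease gene, rose, at 1.82. Their part in the Med12l values was not tested.

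Med12, on chromosome X (chrX:101274091-101298934, 24.8 kb), is the broadly used paralogue that binds and activates the kinase pair. It had 4 regions, and none was called. Its promoter region, chrX:101273783-101274714, stood at 0.36 (adjusted p = 0.441) with a log2 abundance of 3.04 per the authors' deposited table. Inside the gene the value at chrX:101285541-101285805 was 1.00 (adjusted p = 0.0600), the lowest adjusted p of the gene, per the authors' deposited table. The remaining values were -0.78 and -0.31 per the authors' deposited table. The median of the 4 was 0.02, against -0.45 over chromosome X.

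Med13l and Med13 encode the paralogous subunits that join the module to the core of Mediator. Med13l (chr5:118560330-118765438, 205 kb) had 57 regions, more than Med12l, and a median of -0.11, with 33 below 0 and 0 called. Its promoter region, chr5:118559507-118561999, was the most abundant of the whole module, at 4.16, with a log2 fold change of -0.37 (adjusted p = 0.638) per the authors' deposited table. The lowest adjusted p lay 3.7 kb before the gene, at chr5:118556270-118557049, with a fold of -1.69 (adjusted p = 0.00369) per the authors' deposited table. Inside it, chr5:118647306-118648025 was at -1.78 (adjusted p = 0.00619) and chr5:118638052-118638893 at 1.45 (adjusted p = 0.0157) per the authors' deposited table. The latter 2 regions, of opposite sign, lie within 10 kb of each other and both passed 0.05.

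Med13 (chr11:86267033-86357596, 90.6 kb) had 4 regions with a median of -0.25 and 0 called. The region over its promoter, chr11:86356075-86358511, stood at 0.41 (adjusted p = 0.789) per the authors' deposited table, and it was the only Med13 region with a log2 abundance above 0. The other folds were -1.19, -0.67 and 0.16, and the lowest adjusted p was 0.289, per the authors' deposited table. Med13 thus had few regions and Med13l many, with 4.42 and 25.4 per 100 kb of gene, and neither held a region past the authors' limit.

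Cdk19 and Cdk8 encode the alternative kinases of the module. Cdk19 (chr10:40349287-40483818, 135 kb) had the only region of the module that fell outside Med12l, chr10:40451616-40452571 inside the gene, at -1.96 (adjusted p = 4.42e-04) per the authors' deposited table. Of its 38 regions 30 were below 0, with a median of -0.71 against 0.04 over chromosome 10. At an adjusted p under 0.05, 6 of the 38 regions (15.8%) were lower and 2 higher, where 9.21% and 7.98% of all regions were called. At its lower-coordinate end the region chr10:40347695-40350184 was at 0.49 (adjusted p = 0.695) per the authors' deposited table. The most abundant one, chr10:40476482-40477842 with 3.46, was at -1.04 (adjusted p = 0.00873) per the authors' deposited table.

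The Cdk19 values differed along the gene. From the lower-coordinate end to the midpoint of the gene, 7 of 13 regions were below 0, with a median of -0.06, and both of the higher regions past 0.05 lay here. The larger of them, chr10:40373837-40374060, stood at 1.53 (adjusted p = 0.00707) per the authors' deposited table. From the midpoint on, 19 of 20 were below 0, with a median of -0.72. Outside the extent 3 of 5 regions were lower at 0.05, the farthest of them 31.7 kb away at chr10:40515185-40515843, with -1.50 (adjusted p = 0.00448) per the authors' deposited table.

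Cdk8 (chr5:146230795-146302874, 72.1 kb) had 10 regions, 2 of them below 0, with a median of 0.34 and 0 called. Its promoter region, chr5:146230638-146232013, was the most abundant at 3.36 and stood at 0.09 (adjusted p = 1) per the authors' deposited table. The lowest adjusted p was that of chr5:146248687-146249064, at 1.34 (adjusted p = 0.00245), per the authors' deposited table. At the other gene end chr5:146303146-146303758 was at 0.29 (adjusted p = 0.647) per the authors' deposited table. The medians of the kinase paralogues thus had opposite signs, -0.71 for Cdk19 and 0.34 for Cdk8, a difference that was not tested.

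Ccnc (chr4:21727701-21759922, 32.2 kb), the cyclin C gene, had 4 regions and 0 called. Its promoter region, chr4:21726834-21728499, stood at 0.43 (adjusted p = 0.720) per the authors' deposited table. The most abundant region, chr4:21755081-21755774 inside the gene, was at -1.43 (adjusted p = 0.00911) per the authors' deposited table. Values of -0.45 and -0.46 at the others gave a median of -0.45 per the authors' deposited table.

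Compared at their starts, the promoter regions of Med12, Med13, Med13l, Cdk8 and Ccnc lay between -0.37 and 0.43 with adjusted p of 0.441 to 1, and that of Med12l at -2.21, per the authors' deposited table. In read level the Med12l start region, at 2.60, lay within the 0.87 to 4.16 of the other 5. Cdk19, which had no promoter entry, was left out of this comparison. The region at its lower-coordinate end stood outside both ranges, at 0.49 with a log2 abundance of 0.08, per the authors' deposited table.

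The rest of Mediator, its head, middle and tail modules, was described through 26 further subunit genes with 100 regions. Of these regions 1 fell (1%) and 0 rose, against 1.22% and 1.24% of all regions. Their median log2 fold change was 0.11, and 16 of the 26 genes had a median above 0. The fallen region, chr11:98710328-98710827, lay inside Med24, a tail subunit gene, at -1.66 (adjusted p = 8.69e-05) per the authors' deposited table. Close by in the same gene, chr11:98708404-98709800 was at 1.15 (adjusted p = 0.00606) per the authors' deposited table. At an adjusted p under 0.05, 7 of the 100 regions were lower and 4 higher, where 9.21% and 7.98% of all regions were called.

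**Figure D4:**
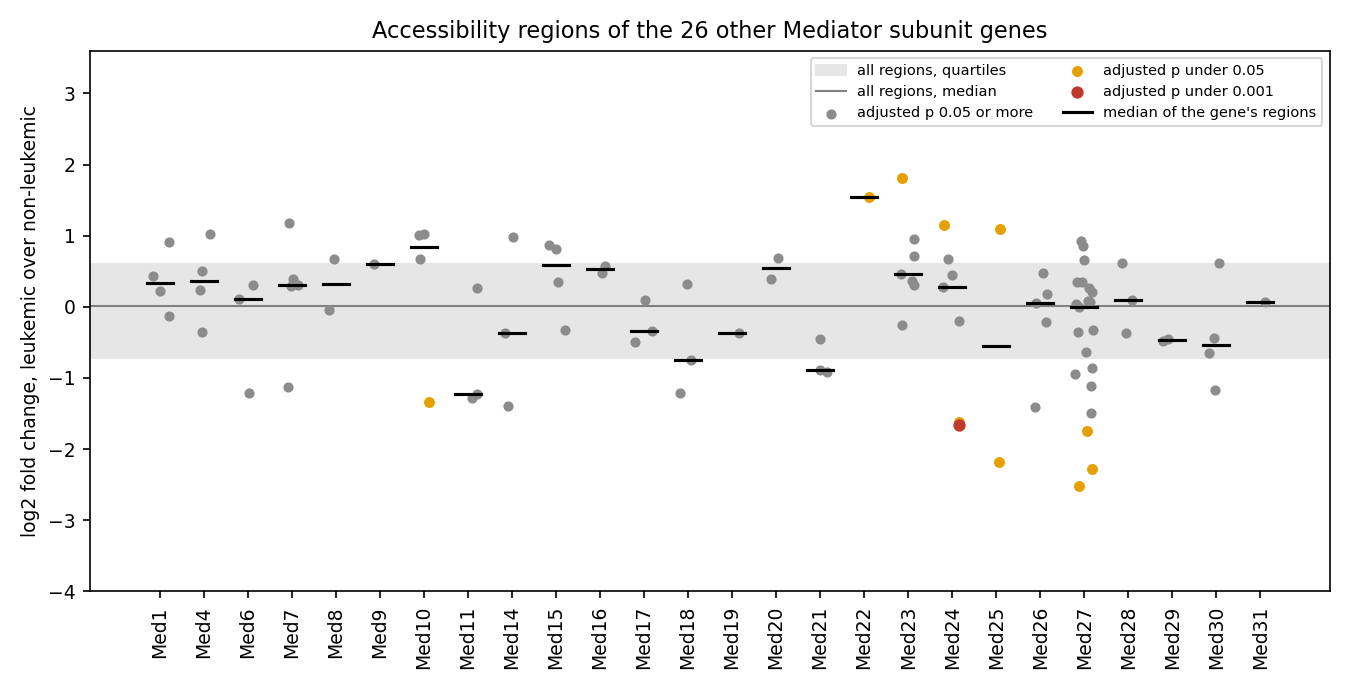
Regions of the 26 other Mediator subunit genes, by gene (horizontal axis), with the authors' log2 fold change of leukemic over non-leukemic cells (vertical axis); bars, band and colours mark gene medians, all-region quartiles and adjusted p. The single region past 0.001 is in Med24, and gene medians run from -1.23 to 1.54.

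Since the files give 1 comparison and no values per library, likeness to Med12l could be set only on the share of fallen regions. Among 680 genes with 0.5 to 2 times its number of regions, those with 0 regions that rose and the nearest share were Gm13986 and Retreg1 (7 of 31 each), Agpat4 (5 of 27), Sgms1 (9 of 57) and Prr5l (4 of 26). Their medians ran from -1.85 at Retreg1 to -0.86 at Agpat4. Gm13986 and Prr5l lie on chromosome 2, which had a median of -0.56 over its regions, against -0.04 for chromosome 3 with Med12l. Med12l had the highest number of fallen regions of any gene under this counting, 11, followed by 9. Because the gene was chosen for its reduced regions, this rank is only a description. In share of fallen regions, Gm13986 and Retreg1 stood higher than Med12l, at 22.6% each against 21.2%. The count of 11 includes the regions Med12l shares with the receptor genes inside it. Of these, 7 were left when each region counted only for the shortest gene around it.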

How the data were processed

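ATAC-seq libraries from sorted mouse marrow cells were compared by the authors, and the values used here are theirs. Per the submitters' processing notes, GRCm38 (mm10), Bowtie2 2.4.1, SAMtools 1.10.2 and Genrich 0.6 were used. The title of the authors' file names csaw, which tests windows for differential accessibility; how it was set, and how reads were normalized, filtered or shifted, no source used here says. The deposited columns carry no header: a log2 fold change, a log2 abundance, a p-value and an adjusted p-value were read from their position and range. The deposited adjusted p-value equals a Benjamini-Hochberg adjustment over the 160978 regions to within 2.39e-15, and the authors' less and more accessible sets of 1961 and 2002 regions equal those under 0.001 by sign.

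Regions were assigned to gene extents of a RefSeq table (GRCm38.p6) in Python 3.11.15 with pandas 2.3.3. A centre inside several extents counted for each. Assignment was tested on simulated data. The members and lists were chosen with earlier results of these data known. Named regions are those under 0.001, and for each member the lowest adjusted p, the most abundant and the gene-end regions. Alternatives were other limits, distances and gene sets. Coordinates are printed as the file has them, and no source says if its starts are counted from 0 or from 1. A planned comparison of protein sequences was not run, and some planned marker and neighbouring genes are not reported here. Depth per library is unknown, and regions of 1 gene are not replicates.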

Additional observations from a re-analysis of the deposited data

How the results depend on the processing

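Of 44 recomputed counts, 35 stayed within 1.5 times the value given. Many of these could not have moved, so the number is no measure of robustness. A count of 0 that rose stays 0 in any subset of the regions. The nearer distance and the gene extent kept the same 52 Med12l regions. At an adjusted p under 0.0001, 2 Med12l regions fell, as did 0 at the 6 other module genes. At 0.05, 22 were lower at Med12l, 9 lower and 4 higher at the 6 others, and 7 lower and 4 higher at the other Mediator genes. Of all regions, 9.21% were lower and 7.98% higher at that limit. Counting a region only for the shortest gene around it gave 7 at Med12l. Leaving out regions within 1 kb of another gene, chosen after seeing the data as was the abundance minimum of 0, gave 6. Of 36 recomputed gene medians, 35 kept their sign and moved by less than 1 SD over the regions of the gene, a wide tolerance. Moves of over 1.5 times were, at or above the median abundance of all regions, Med12l from -1.17 to -2.11, Med12 from 0.02 to 0.68, Med13l from -0.11 to -0.26 and Cdk8 from 0.34 to 0.20; with protein-coding genes only, Med13 from -0.25 to -0.67; and with centres inside the extent only, Ccnc from -0.45 to -0.95. For Med13 the median turned to 0.41 at or above the median abundance, where 1 region was left. No paired analysis was possible because the files used hold 1 fold per region and no library values, and for the same reason no library could be left out. Unknown depth limits every fold.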
